A study of Homo sapiens with 10 samples.

Results

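The aminoacyl-tRNA synthetases are the enzymes that join each amino acid to its own tRNA, and 38 genes of this system were followed through ribosome footprinting of leukaemia cells. They were 19 genes of the cytosolic synthetases, 16 genes of the mitochondrial synthetases and 3 genes of the non-catalytic scaffold proteins that hold several cytosolic enzymes together. The genes were chosen by name and matched to the Ensembl gene IDs of the deposited tables, which gave 38 of the 55889 genes listed in each library. Of these, 37 were among the 10297 genes with a mean of at least 1 RPKM (reads per kilobase of gene length, scaled to each library's mapped reads) in both assays, which were the genes tested. PARS2, the mitochondrial prolyl-tRNA synthetase, fell short of that limit in footprints and is described by its values alone.

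The cells were KOPT-K1, an established human line of T-cell acute lymphoblastic leukaemia (T-ALL). They received 25 nM silvestrol, a plant-derived inhibitor of the initiation helicase eIF4A, or its solvent DMSO, for 45 min. Each treatment had 2 libraries of ribosome-protected fragments (footprints) and 3 libraries of total RNA, 10 libraries in all. The labels give 1 cell line, 1 dose and 1 time. Whether the replicates are separate cultures is not stated in them, so every p-value measures only how far these libraries differ from each other, and that difference may be technical.

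Each synthetase recognises 1 amino acid, activates it with ATP and transfers it to the matching tRNA, and the ribosome depends on the accuracy of this step. Human cells keep separate nuclear genes for most of the mitochondrial enzymes, which are made in the cytosol, imported, and used to translate the few proteins that mitochondrial DNA encodes. GARS1 and KARS1 are the exceptions, since each gene makes both the cytosolic and the mitochondrial enzyme, for glycine and for lysine. EPRS1 carries the glutamate and the proline activity in 1 polypeptide, FARSA and FARSB are the subunits of the cytosolic phenylalanine enzyme, and AIMP1, AIMP2 and EEF1E1 (AIMP3) are the scaffold of the multisynthetase complex. Many cytosolic synthetase genes are known targets of ATF4, the transcription factor that answers amino acid shortage.

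The start regions were searched for the element through which ATF4 and its partners bind, the composite site TGATGNAA. Both strands were read, from 250 bases before to 50 after each start site in RefSeq (GRCh38.p14), in the 33 members with a window there. It occurred in 7 of 16 cytosolic synthetase genes, in 0 of 3 scaffold genes and in 1 of 14 mitochondrial genes, against 2.44% of the 7716 tested genes with a window and 4.46% of all 27305 genes with one. The form with C at the open base, TGATGCAA, was in 6 of the 16 cytosolic genes and in 0.674% of tested genes. The 8 matches are shown because 7 of them lie in cytosolic genes, with the match in capitals, 5′ to 3′ on the strand of the gene.
AARS1: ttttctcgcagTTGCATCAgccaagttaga
CARS1: cggggcggcggTTGCATCAgattctaggaa
GARS1: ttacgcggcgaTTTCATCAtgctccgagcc
IARS1: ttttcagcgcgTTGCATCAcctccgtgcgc
MARS1: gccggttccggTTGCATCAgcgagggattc
NARS1: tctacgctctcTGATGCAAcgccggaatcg
TARS1: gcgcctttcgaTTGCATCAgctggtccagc
YARS2: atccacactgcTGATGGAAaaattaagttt

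In order, these windows lie at chr16:70289675-70289704 (minus strand), chr11:3057407-3057436 (minus), chr7:30594834-30594863 (plus), chr9:92293692-92293721 (minus), chr12:57488053-57488082 (plus), chr18:57621804-57621833 (minus), chr5:33440956-33440985 (plus) and chr12:32756076-32756105 (minus). Capitals that read TTGCATCA or TTTCATCA are the motif on the opposite strand. Within the cytosolic set the first base of the match lay within 33 bases of the start site in 6 genes, and in AARS1 it lay at position -187. The only mitochondrial match, in YARS2, lay at position -197. The E-box CACGTG, bound by MYC among others, was in 1 of 16 cytosolic, 1 of 3 scaffold and 3 of 14 mitochondrial windows, against 13.0% of tested genes. These are letter matches and not measured binding.

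RNA of the cytosolic synthetases was more abundant than that of the mitochondrial ones in every library. The median cytosolic gene had 40.9, 41.2 and 41.2 RPKM in the 3 silvestrol RNA libraries and 41.0, 41.3 and 40.9 RPKM in the 3 DMSO RNA libraries. The median mitochondrial gene had 11.9, 11.4 and 11.7 RPKM with silvestrol and 12.4, 12.1 and 11.4 RPKM with DMSO, close to the median of all tested genes of 10.6 RPKM with silvestrol and 10.5 RPKM with DMSO. The ratio of the cytosolic to the mitochondrial median was 3.44, 3.62 and 3.52 with silvestrol and 3.31, 3.43 and 3.57 with DMSO, so the groups overlapped. In footprints the ratio was 3.98 and 5.53 with silvestrol and 5.15 and 3.57 with DMSO, again with overlap between the treatments. The 2 values within a treatment lay farther apart in footprints than the 3 values in RNA.

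**Figure D1:**
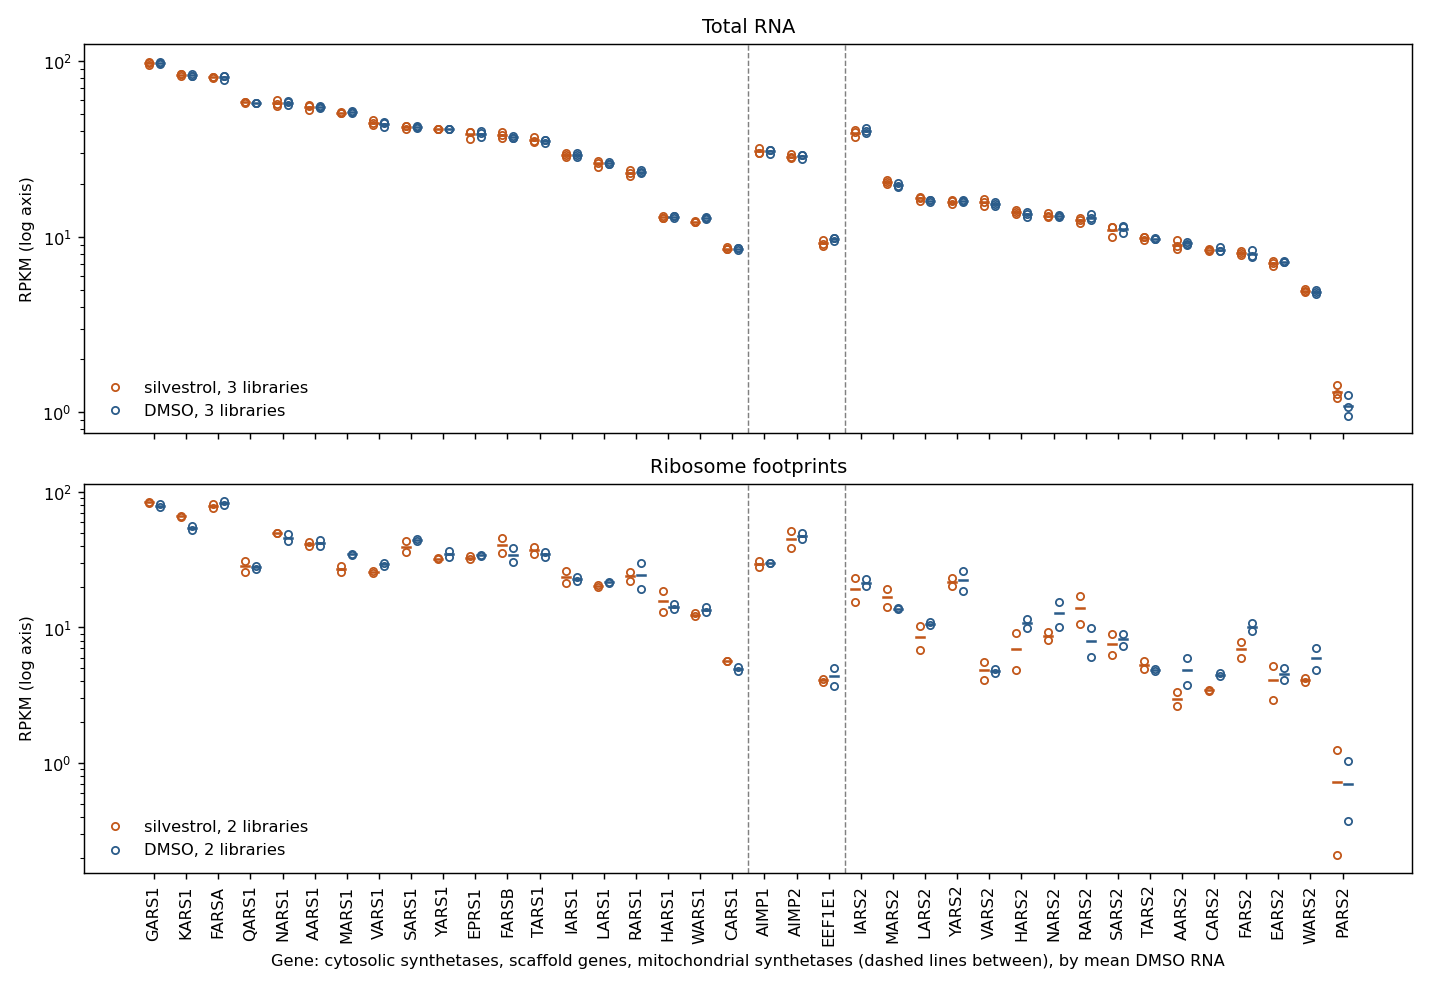
RPKM of the 38 genes in each library on log axes, total RNA above and footprints below; open circles are single libraries, bars are means, silvestrol stands left of DMSO, and dashed lines part the cytosolic, scaffold and mitochondrial genes. RNA of the cytosolic genes ran from 8.53 to 97.8 RPKM and that of the mitochondrial genes from 1.09 to 40.1 RPKM in DMSO, and circles of 1 gene lie wider apart in footprints than in RNA.

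GARS1, which serves both compartments, had the highest RNA level of the set, with 95.1, 98.5 and 97.8 RPKM in silvestrol libraries and 99.2, 96.7 and 97.6 RPKM in DMSO libraries. KARS1, the other shared gene, came next with 81.7, 84.8 and 83.9 RPKM in silvestrol libraries and 84.7, 81.8 and 82.3 RPKM in DMSO libraries. FARSA followed it closely in DMSO RNA, at 80.9 ± 2.7 RPKM against 82.9 ± 1.6 RPKM for KARS1 (SD, n = 3 each), a gap within the spread between libraries. Leaving GARS1 and KARS1 out of the cytosolic set put its median at 38.4 RPKM with silvestrol and 38.7 RPKM with DMSO, against 41.1 RPKM in each treatment with them. A median moves little when the highest genes are left out. The summed DMSO RNA of the cytosolic set was 834.0 RPKM with these genes and 653.3 RPKM without them, against 206.1 RPKM for the mitochondrial set.

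The cytosolic genes with the least RNA were CARS1 and WARS1, the cysteine and tryptophan enzymes. CARS1 had 8.68, 8.46 and 8.48 RPKM with silvestrol and 8.57, 8.61 and 8.42 RPKM with DMSO. WARS1 had 12.1, 12.3 and 12.1 RPKM with silvestrol and 12.9, 12.7 and 12.6 RPKM with DMSO. These levels are within the range of the mitochondrial genes.

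Among the mitochondrial genes IARS2, the isoleucine enzyme, stood highest, with 37.0, 40.7 and 39.2 RPKM in silvestrol RNA and 39.8, 39.0 and 41.6 RPKM in DMSO RNA. MARS2, the methionine enzyme and thus the one that charges the mitochondrial initiator tRNA, was next with 20.0, 21.1 and 20.5 RPKM in silvestrol RNA and 20.2, 19.4 and 19.3 RPKM in DMSO RNA. The lowest were WARS2, at 5.06, 4.90 and 4.85 RPKM with silvestrol and 4.82, 4.70 and 4.94 RPKM with DMSO, and PARS2. PARS2 had 1.44, 1.27 and 1.21 RPKM with silvestrol and 1.25, 1.07 and 0.96 RPKM with DMSO, and its groups overlapped. Its footprints rested on an estimated 1 to 7 reads per library, too few for a statement about treatment.

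Set against each other by amino acid, the cytosolic gene had more DMSO RNA than its mitochondrial counterpart in 15 of 17 pairs, with a median ratio of 2.85, and in 15 of 17 pairs with silvestrol, also with a median of 2.85. The widest gap was between EPRS1 and PARS2, at 29.5-fold with silvestrol and 35.6-fold with DMSO. FARSA stood above FARS2 by a log2 ratio of 3.32 with silvestrol and 3.35 with DMSO, and AARS1 stood 6.13-fold above AARS2 with silvestrol and 5.98-fold with DMSO. At the other end, IARS1 had less RNA than IARS2, with a ratio of 0.749 with silvestrol and 0.727 with DMSO, and the 3 DMSO libraries gave 0.724 to 0.729. CARS1 over CARS2 gave 0.992 to 1.03 in the DMSO RNA libraries and HARS1 over HARS2 gave 0.921 to 1.01, so neither pair differed beyond the spread between libraries.

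**Figure D2:**
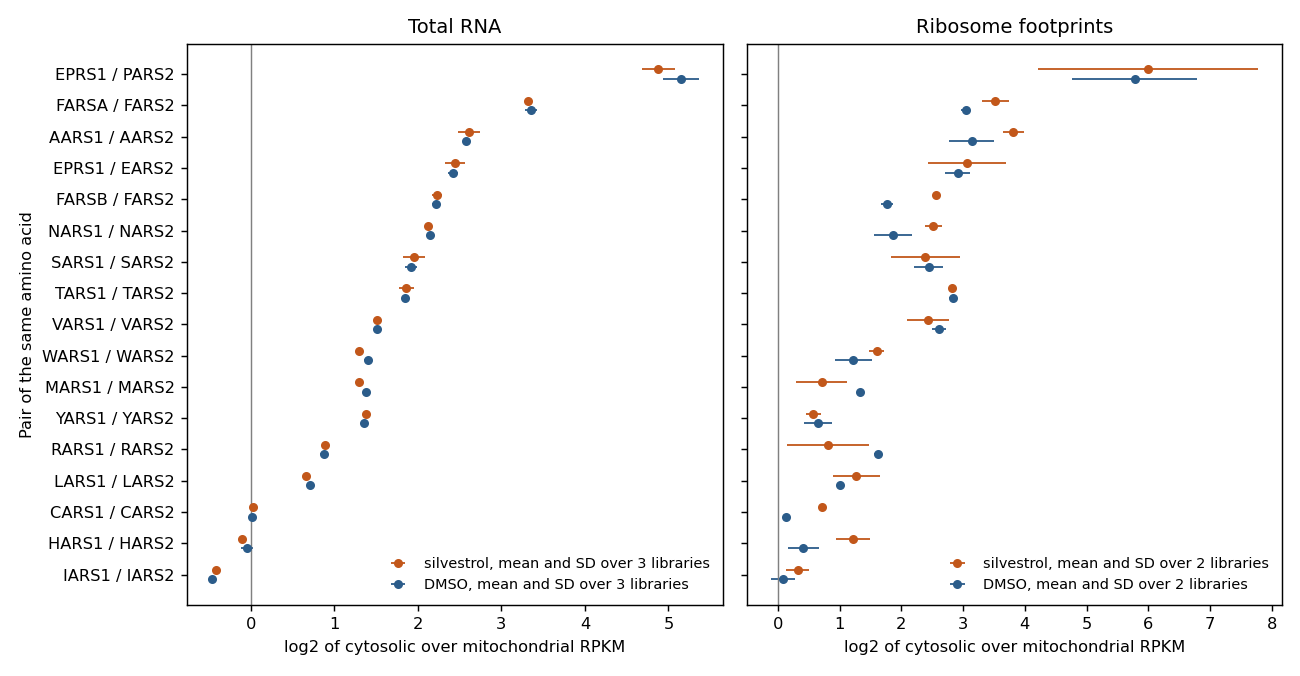
Ratio of the cytosolic to the mitochondrial gene of the same amino acid in 17 pairs, as log2 RPKM ratio (mean and SD over 3 RNA libraries on the left and 2 footprint libraries on the right), silvestrol above DMSO in each pair. In RNA the silvestrol and DMSO ratios differ by at most 0.27 on the log2 scale, and in footprints all DMSO means lie above 0.

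In footprints the mean of the cytosolic gene led in 17 of 17 pairs with DMSO, though IARS1 over IARS2 gave 0.965 and 1.16 in the 2 libraries and so did not differ beyond their spread. The pairs had a median ratio of 5.25 with silvestrol and 3.41 with DMSO. These medians fell on different pairs, so their gap is not the typical change within a pair. The silvestrol median was SARS1 over SARS2, which stood at 5.44 with DMSO. The DMSO median was FARSB over FARS2, which stood at 5.89 with silvestrol. The footprint ratio was larger with silvestrol than with DMSO in 11 pairs and smaller in 6. EPRS1 and FARS2 each enter more than 1 pair, so the pairs are not independent. AARS1 over AARS2 gave 12.9 and 15.2 in the silvestrol footprint libraries and 7.39 and 10.5 in the DMSO footprint libraries, which did not overlap. RARS1 over RARS2 gave the opposite order, 1.27 and 2.42 with silvestrol and 2.99 and 3.16 with DMSO. These ratios were not tested, since no test of a pair was part of the design.

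Where a pair stands depends in part on the gene length behind RPKM, which is not stated. For estimated reads and rescaling it was taken as all exon bases of a gene in GENCODE release 29, each counted once. With that length, 10 of 10 member footprint values of at most 30 reads lay within 0.15 of a whole read. Rescaled to the length of the principal transcript in GENCODE release 29, the cytosolic gene again led in 15 of 17 pairs, with a median of 3.20, but the pairs near 1 moved. HARS1 then stood 2.09-fold above HARS2, CARS1 at 0.661 of CARS2 and IARS1 at 0.987 of IARS2. The order of the mitochondrial genes in DMSO RNA moved as well. On this length CARS2 and IARS2 each stood at 47.0, VARS2 at 36.5 and MARS2 at 19.6. HARS1 and HARS2 are neighbours transcribed away from each other on chromosome 5, with RefSeq start sites at 140691370 (minus strand) and 140691455 (plus strand) in GRCh38.p14, 85 bases apart, and their exons overlap in GENCODE release 29. Reads in the overlap cannot be assigned without strand, and the sources used here do not state whether the authors counted by strand. In all, 18 of the 38 genes have an exon that overlaps a gene on the opposite strand, among them MARS1 (with DDIT3 and ARHGAP9) and KARS1 (with TERF2IP), and 13 have named pseudogenes. On the same strand 7 genes have such an overlap, which strand cannot resolve. Among these are VARS2 (with GTF2H4), EEF1E1 (with EEF1E1-BLOC1S5) and HARS2 (with ZMAT2). Counting both kinds, 22 of the 38 genes have an exon overlap.

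The 2 compartments were also set against each other in footprint density per RNA, the log2 footprint to RNA ratio in DMSO relative to the median tested gene. The median cytosolic gene stood at 0.15 and the median mitochondrial gene at -0.14, with 14 of 19 cytosolic and 5 of 15 mitochondrial genes above the median tested gene. With silvestrol the values were 0.29 and -0.26. Both ranges were wide and overlapped, from -0.62 (QARS1) to 0.55 (HARS1) in the cytosolic set and from -1.16 (VARS2) to 0.88 (YARS2) in the mitochondrial set, with standard errors of 0.12, 0.16, 0.20 and 0.16 for these 4 genes in that order.

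QARS1, the glutamine enzyme, had footprints of 31.1 and 25.6 RPKM with silvestrol and 28.3 and 27.2 RPKM with DMSO, against RNA of 58.4, 58.0 and 58.4 RPKM with silvestrol and 57.8, 57.8 and 57.4 RPKM with DMSO. YARS2, the mitochondrial tyrosine enzyme, had 20.3 and 23.3 RPKM of footprints with silvestrol and 26.0 and 18.7 RPKM with DMSO, against RNA of 15.3, 16.0 and 16.2 RPKM with silvestrol and 16.2, 15.9 and 15.8 RPKM with DMSO. In each of these genes all footprint values lay on 1 side of all RNA values. The scale of footprints against RNA is arbitrary, so this order is not evidence by itself. The median tested gene had 7.46 RPKM of footprints and 10.5 RPKM of RNA in DMSO. The gap between the compartments depended on the length used. Footprints were then scaled to coding length, on the assumption, not measured here, that nearly all of them lie in coding sequence. The medians became -0.37 for the cytosolic and -0.42 for the mitochondrial genes, so the gap all but closed. RNA kept its deposited scale in this step, so the ratio also rose with a gene's exon length over its coding length. Of the 4 genes at the ends of the ranges, QARS1 (-1.32) and VARS2 (-1.40) were again below the median tested gene and HARS1 (1.25) above it, while YARS2 moved to -0.06.

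**Figure D3:**
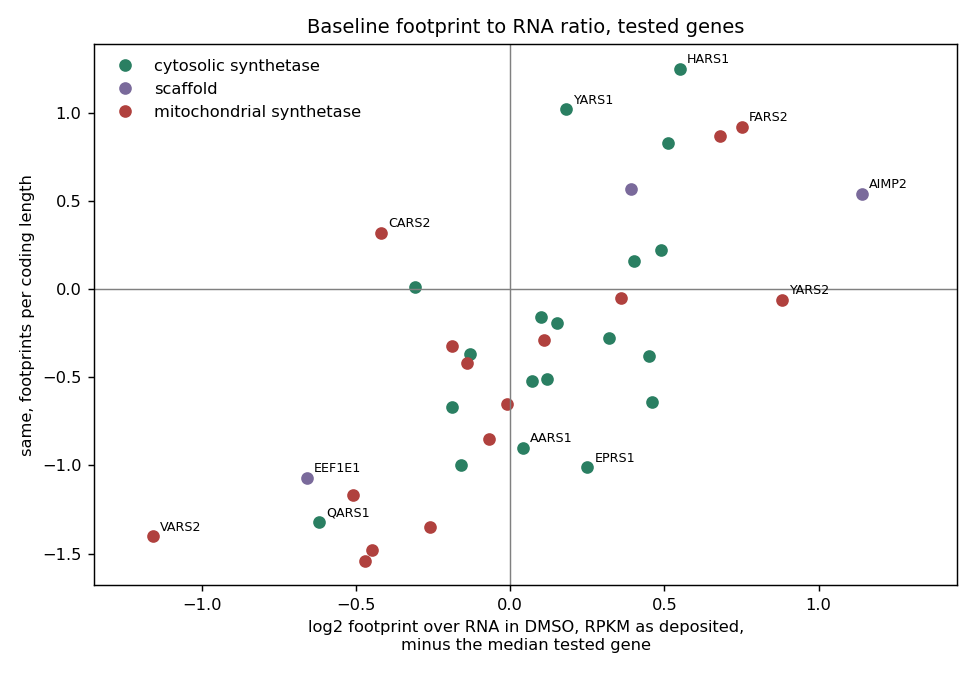
Log2 footprint to RNA ratio of 37 genes in DMSO, minus that of the median tested gene, from RPKM as deposited (horizontal axis) and with footprints scaled to coding length (vertical axis); each point is 1 gene and the extreme genes are named. The cytosolic median is 0.15 on the horizontal axis and -0.37 on the vertical axis, and the mitochondrial median is -0.14 and -0.42.

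RNA of the set did not respond measurably to 45 min of silvestrol. The limma test on 3 libraries per treatment called 0 of 37 members, 0 also had an unadjusted p under 0.05, and the smallest adjusted p was 0.572. Among all tested genes it called 29, or 0.282% (28 higher, 0.272%, and 1 lower, 0.00971%), and 9.23% had an unadjusted p under 0.05. The log2 changes, on the log2(RPKM + 0.5) scale used throughout, ran from -0.06 to 0.04 in the cytosolic set and from -0.04 to 0.06 in the mitochondrial set, with medians of -0.001 and 0.010. Every 95% interval lay between -0.16 and 0.14, so changes beyond 0.895-fold or 1.10-fold are outside the interval of each member. In bulk cells fewer cells and less RNA per cell cannot be told apart, and RPKM is relative to each library's total, so a change common to all RNA would not appear.

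In single libraries, QARS1 was the 1 member with all silvestrol RNA values above all DMSO values and WARS1 the 1 member with all below. Among all tested genes, 8.97% lay wholly above and 3.99% wholly below. The QARS1 difference was small, with 58.3 ± 0.23 RPKM with silvestrol and 57.7 ± 0.23 RPKM with DMSO (SD, n = 3 each). WARS1 had 12.2 ± 0.12 RPKM with silvestrol and 12.7 ± 0.15 RPKM with DMSO.

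Translational efficiency is the footprint level relative to the RNA level, and its change is the footprint change minus the RNA change. The limma test of that difference over all 10 libraries, with 1 weight per assay, called 0 of 37 members. It called 11 of the 10297 tested genes, or 0.107% (9 lower, 0.0874%, and 2 higher, 0.0194%), and 7.38% had an unadjusted p under 0.05. The weights were shared by all genes, and each gene had 1 weighted spread over both assays. Scatter in a gene's RNA therefore also entered its standard error. For EPRS1 this was 0.28 in translational efficiency, against 0.13 in footprints alone and 0.04 in RNA alone. In footprints alone limma called 0 of 37 members and 5 genes in all, or 0.0486% (3 lower, 0.0291%, and 2 higher, 0.0194%), with 6.98% of genes at an unadjusted p under 0.05. The members with an unadjusted p under 0.05 were RARS2 and HARS2 in translational efficiency and MARS1 in footprints. Footprint RPKM is also relative to each library's total. A change common to all footprints would therefore not appear in footprints or in translational efficiency.

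On this relative scale the cytosolic synthetases as a group stayed near 0. Their median log2 change in translational efficiency was 0.009, with 10 genes above 0 and 9 below, against -0.078 over all tested genes. Scaling the libraries to a common median put the cytosolic median at 0.073, with 13 genes above 0 and 6 below, against -0.013 over all tested genes. The changes ran from -0.34 (MARS1) to 0.28 (KARS1), and every 95% interval lay between -0.70 and 0.72, so all 19 were within a factor of 2 either way. In footprints all silvestrol values lay above all DMSO values in 4 of 19 genes (CARS1, GARS1, KARS1 and NARS1) and below them in 7 (EPRS1, LARS1, MARS1, SARS1, VARS1, WARS1 and YARS1). Among all tested genes 13.1% lay wholly above and 25.2% wholly below.

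KARS1 (ENSG00000065427.10), the lysine enzyme of both compartments, had footprints of 65.6 and 66.5 RPKM in the silvestrol libraries and 55.6 and 52.1 RPKM in the DMSO libraries. Both silvestrol values were higher, while its RNA overlapped between treatments. Its log2 change in translational efficiency was 0.28 (SE 0.17, limma adjusted p = 0.775). GARS1, the other gene of both compartments, had 83.0 and 84.9 RPKM of footprints with silvestrol and 80.7 and 77.8 RPKM with DMSO. These did not overlap either, but the log2 change in translational efficiency was only 0.09 (SE 0.16, limma adjusted p = 0.946).

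MARS1 (ENSG00000166986.8), the cytosolic methionine enzyme, went the other way. Its footprints were 25.8 and 28.3 RPKM with silvestrol and 34.4 and 34.9 RPKM with DMSO, so both silvestrol values were lower, with RNA of 50.7 ± 0.31 RPKM with silvestrol and 51.2 ± 0.42 RPKM with DMSO (SD, n = 3 each). The log2 change in translational efficiency was -0.34 (SE 0.16, limma adjusted p = 0.684) and in footprints -0.35 (SE 0.14, limma adjusted p = 0.701). If the same spread is assumed for footprints and RNA, limma calls 5.29% of all tested genes (3.99% lower and 1.30% higher) and 2 members, MARS1 (SE 0.07, adjusted p = 0.032) and KARS1 (SE 0.06, adjusted p = 0.0398). That assumption does not hold here, since the median replicate SD was 0.193 and 0.175 log2 units in silvestrol and DMSO footprints and 0.0471 and 0.0391 in RNA.

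VARS1, the valine enzyme, had 25.4 and 26.2 RPKM of footprints with silvestrol and 28.5 and 29.9 RPKM with DMSO, a log2 change in translational efficiency of -0.20 (SE 0.23, limma adjusted p = 0.921). FARSB, a subunit of the phenylalanine enzyme, had 45.6 and 35.5 RPKM with silvestrol and 38.3 and 30.5 RPKM with DMSO, which overlapped, for a change of 0.19 (SE 0.24, limma adjusted p = 0.921). That change was 0.014 and 0.371 without the first and the second silvestrol footprint library, and 0.354 and 0.03 without the first and the second DMSO one. Its partner subunit FARSA had 80.7 and 75.9 RPKM with silvestrol and 85.2 and 80.3 RPKM with DMSO, which overlapped too. CARS1 had 5.70 and 5.63 RPKM with silvestrol and 5.10 and 4.74 RPKM with DMSO, and WARS1 had 12.2 and 12.7 RPKM with silvestrol and 13.0 and 14.1 RPKM with DMSO. The groups of VARS1, CARS1 and WARS1 did not overlap, and limma called none of these 5 genes.

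**Figure D4:**
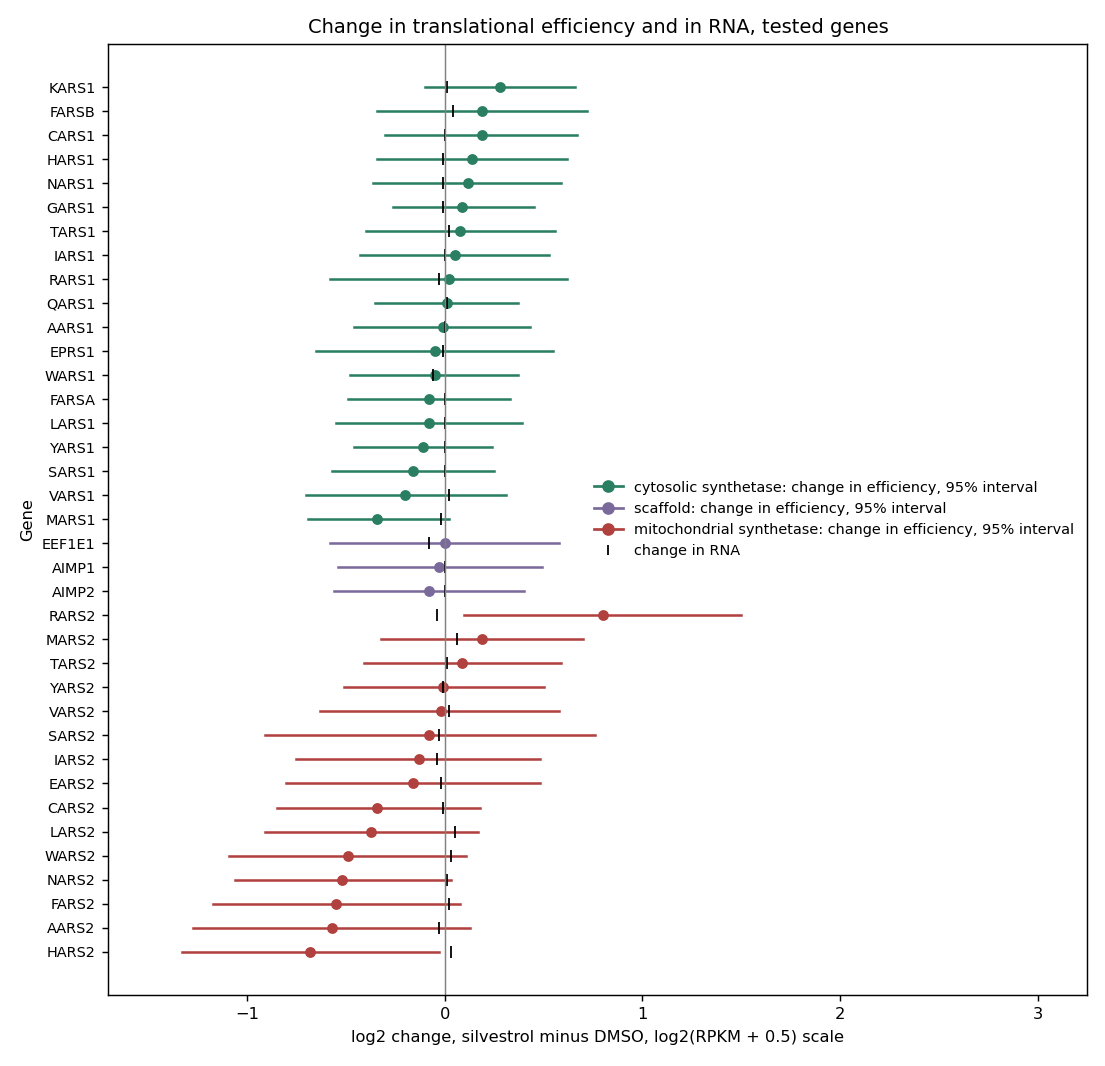
Log2 change in translational efficiency with its 95% interval for the 37 tested genes, silvestrol minus DMSO (points and lines), with the change in RNA as a tick, sorted within the cytosolic, scaffold and mitochondrial sets. The RNA ticks lie between -0.08 and 0.06, and the mitochondrial intervals, from -1.33 to 1.50 at their outer ends, are wider than the cytosolic ones, from -0.70 to 0.72.

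The mitochondrial synthetases had a lower median change than the cytosolic ones, with less precision. Their median log2 change in translational efficiency was -0.158, with 3 genes above 0 and 12 below, against -0.078 over all tested genes. With the libraries scaled to a common median it was -0.094, with 5 genes above 0 and 10 below. All silvestrol footprint values lay above all DMSO values in 2 of 16 genes (MARS2 and RARS2) and below them in 7 (AARS2, CARS2, FARS2, HARS2, LARS2, NARS2 and WARS2), where 13.1% of all tested genes lay wholly above and 25.2% wholly below. None of the 15 tested genes passed the adjusted threshold in limma, and the difference between the compartments was not tested, since genes are not replicates of a treatment. The median mitochondrial gene rested on an estimated 69.7 footprint reads per library and the median cytosolic gene on 359, and the median standard error of the change was 0.278 and 0.217 in that order. For 9 of the 15 genes the 95% interval stayed within a factor of 2 either way.

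The silvestrol footprint libraries differed from each other in these genes. The second lay below the first in 10 of 15 mitochondrial genes with a median log2 difference of -0.37, in 10 of 19 cytosolic genes with a median of -0.01, and in 47.2% of all tested genes with a median of 0.02. Between the DMSO footprint libraries the median difference was -0.04 over the mitochondrial genes. Without the second silvestrol footprint library the mitochondrial median change in translational efficiency was -0.105, and without the first it was -0.320.

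RARS2 (ENSG00000146282.13), the mitochondrial arginine enzyme, had the largest increase in footprints of the set, with 17.2 and 10.6 RPKM in silvestrol libraries and 6.07 and 9.93 RPKM in DMSO libraries. The groups did not overlap, but the lower silvestrol value lay close to the higher DMSO value. Its log2 change in translational efficiency was 0.80 (SE 0.32, unadjusted p = 0.0278, limma adjusted p = 0.586). Without the first silvestrol or the first DMSO footprint library the change was 0.467 or 0.47, and without the second of either treatment it was 1.14. RARS2 rested on an estimated 35 to 104 footprint reads per library.

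HARS2 (ENSG00000112855.10), the mitochondrial histidine enzyme, had the largest decrease, with 9.10 and 4.88 RPKM in silvestrol footprints and 9.93 and 11.6 RPKM in DMSO footprints. Its log2 change in translational efficiency was -0.68 (SE 0.30, unadjusted p = 0.0429, limma adjusted p = 0.660). The size of the change rested on 1 library, at -0.261 without the second silvestrol footprint library and -1.10 without the first. HARS1, whose exons overlap those of HARS2, had 18.5 and 13.1 RPKM of footprints with silvestrol and 14.9 and 13.6 RPKM with DMSO, which overlapped.

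AARS2, the mitochondrial alanine enzyme, had 3.33 and 2.63 RPKM in silvestrol footprints and 5.95 and 3.78 RPKM in DMSO footprints, a log2 change in translational efficiency of -0.57 (SE 0.32, limma adjusted p = 0.745) that was -0.275 without the first DMSO footprint library and -0.866 without the second. WARS2 had 4.26 and 3.96 RPKM with silvestrol and 4.82 and 7.04 RPKM with DMSO, a change of -0.49 (SE 0.28) that was -0.742 or -0.239 without the first or the second DMSO footprint library. MARS2 had 19.3 and 14.1 RPKM with silvestrol and 13.6 and 13.9 RPKM with DMSO, for a change of 0.19 (SE 0.23, limma adjusted p = 0.921). The sign turned without the first silvestrol footprint library, at -0.028, and the change was 0.412 without the second. IARS2, the mitochondrial member with the most RNA in RPKM as deposited, overlapped between treatments, with 23.1 and 15.4 RPKM with silvestrol and 22.8 and 20.1 RPKM with DMSO.

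The scaffold genes showed no called change. AIMP1 had footprints of 30.7 and 27.9 RPKM with silvestrol and 29.8 and 30.0 RPKM with DMSO, and a log2 change in translational efficiency of -0.03 (SE 0.24). AIMP2 had 38.7 and 51.3 RPKM with silvestrol and 44.9 and 49.8 RPKM with DMSO, a change of -0.08 (SE 0.22). EEF1E1 had 4.19 and 3.97 RPKM with silvestrol and 5.03 and 3.71 RPKM with DMSO, a change of 0.00 (SE 0.27). In each gene the silvestrol and DMSO footprints overlapped. Their log2 footprint to RNA ratio in DMSO, relative to the median tested gene, was 1.14 for AIMP2, 0.39 for AIMP1 and -0.66 for EEF1E1. With footprints scaled to coding length it was 0.54, 0.57 and -1.07 in the same order, so AIMP1 and AIMP2 no longer differed, and the EEF1E1 value rested on an estimated 24 and 13 DMSO footprint reads. AIMP1 and AIMP2 had similar RNA, at 30.7 ± 0.90 and 28.6 ± 0.72 RPKM in DMSO (SD, n = 3 each), while EEF1E1 had 9.70 ± 0.20 RPKM.

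The 5′ untranslated regions (5′UTRs), the part of an mRNA that the eIF4A helicase helps to unwind, differed in length between the compartments. In the principal transcripts of GENCODE release 29 the median was 264 nt in the cytosolic set, 57 nt in the scaffold genes and 55 nt in the mitochondrial set, against 192 nt over 8799 tested genes with a 5′UTR. The G and C share was similar, at a median of 62.7%, 61.4% and 66.4% in the same order, against 66.0%. A pattern able to form a G-quadruplex, taken as 4 runs of at least 2 G with loops of at most 7 bases, was in 11 of 19 cytosolic (57.9%), 1 of 3 scaffold (33.3%) and 9 of 16 mitochondrial genes (56.2%), against 68.1% of tested genes. Of the 38 genes 0 held 4 GGC or CGG units in a row, against 4.60% of tested genes. The annotated 5′UTRs of EARS2 and AARS2 are 1 nt and 3 nt long, and start sites in these cells were not measured.

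Genes that work beside the synthetases also had no called change. Of 17 tRNA charging partners (among them the mitochondrial glutaminyl-tRNA amidotransferase, selenocysteine and proofreading enzymes, and the elongation factors that carry charged tRNA) 16 were tested and limma called 0 in any comparison, with a median log2 change in translational efficiency of -0.168. The median over all tested genes was -0.078. With 1 spread for both assays, an assumption that does not hold here, limma called 2 of these partners lower, and 3.99% of all tested genes lower. The most negative partner was DTD2, which removes D-amino acids from tRNA, at -1.02 (SE 0.31, limma adjusted p = 0.392 with 1 weight per assay). Of 21 genes of ATF4 action and amino acid supply 19 were tested and limma called 0. Their median change was -0.123 in translational efficiency and -0.027 in RNA, against -0.078 and 0.003 over all tested genes. ATF4 itself had 313 ± 9.2 RPKM of RNA with silvestrol and 307 ± 5.0 RPKM with DMSO (SD, n = 3 each), and ASNS, a sensitive ATF4 target that makes asparagine, had 6.90 ± 0.17 and 7.04 ± 0.10 RPKM in the same order.

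The 9 markers of the T lineage that were checked all passed the limit on low values, from PTCRA at a mean of 3.61 RPKM of RNA to CD3D at 674 RPKM, and 10 markers of other blood and stromal cells were all under 1 RPKM, MS4A1 and PAX5 at 0 in every RNA library. Depth was estimated from the value of 1 read, at 2.38 and 2.03 M reads in silvestrol footprints, 2.27 and 1.66 M in DMSO footprints, 126.6 to 178.1 M in silvestrol RNA and 160.5 to 216.7 M in DMSO RNA. The RNA values of the synthetases were much more precise than their footprint values, with 3 libraries per treatment against 2. The part of depth in this difference was not tested.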

How the data were processed

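Each library has a table of RPKM for 55889 versioned gene IDs of Ensembl, deposited by the authors. The aligner STAR and, as genome build, hg19 appear in the submitters' processing notes; the sources used here do not state the counting, gene lengths, strand use or treatment of multiply mapped reads. Groups came from the sample titles, and 0 columns of values stayed unused. Names came from a gene table (49395 IDs) and GENCODE release 29 (267); 6227 IDs stayed unnamed. GENCODE release 29 and RefSeq are on another build, were matched by gene and were never joined to hg19 coordinates.

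Values were analysed as log2(RPKM + 0.5), which understates changes of low genes, with limma 3.58.1 in R 4.3.3 (moderated with a trend, robust, two-sided, Benjamini-Hochberg over 10297 genes with a mean of at least 1 RPKM in RNA and in footprints; threshold 0.05). Translational efficiency was the interaction of assay and treatment over 10 libraries with library weights per assay, footprints were fitted on 4 libraries and RNA on 6. The scripts were tested on simulated data. Depth was estimated from low values, of which 90.3% to 92.9% lay within 0.05 of a whole read; intervals cover the spread between libraries only.

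Values are given per library for members called under any spread, the 2 highest and 2 lowest of each compartment in RNA level and in efficiency change, the scaffold genes, GARS1 and KARS1; other genes named with values were chosen after their values were seen. The members, gene lists, motifs and tests were chosen with earlier results of these data known. Alternatives were another pseudocount, filters, scalings, moderation, 1 spread for both assays, a replicate block, other lengths and leaving out each library.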

Additional observations from a re-analysis of the deposited data

How the results depend on the processing

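The members called (0 in each comparison) changed only with 1 spread for both assays, to 2 in translational efficiency, and to 1 with 1 spread and median scaling (KARS1). Genes called in translational efficiency (11) became 5 with a filter at 0.1 RPKM, 545 with 1 spread, 455 with 1 spread and median scaling, and 8 to 44 without 1 library (44 and 31 without the first and the second silvestrol footprint library, 21 without the first DMSO one, the lone library then assumed to vary like the others). Genes called in footprints (5) became 2 with a pseudocount of 0.1, 3 with a filter at 0.1 RPKM, 2 with no filter, 8 with quantile normalization, 1 without trend and robust moderation and 0 whichever library was left out. Genes called in RNA (29) became 5 with the lower filter or one on RNA alone, 0 with no filter, 4 without trend and robust moderation and 0 to 35 without 1 library (0, 5 and 0 without DMSO RNA library 1, 2 and 3, 1 without silvestrol RNA library 3). Without trend and robust moderation, 6 genes were called in translational efficiency. Same-numbered libraries did not deviate together (r = -0.033 in footprints; 0.042, -0.327 and 0.15 in RNA), and with the replicate number as a block 14 genes were called in translational efficiency, 1 in footprints, 57 in RNA and 63 with 1 spread, with 0 members in each.

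The cytosolic median change was 0.073 with median scaling, 0.071 with quantile normalization and -0.063 to 0.013 without 1 library in translational efficiency, 0.041, 0.051 and -0.089 to 0.016 in footprints, and -0.014 with median scaling and -0.014 to 0.013 without 1 library in RNA. The cytosolic baseline ratio was 0.287 in silvestrol libraries and -0.367 per coding length (mitochondrial -0.415), and the median pair ratio was 1.68 (log2) per principal transcript. Sign changes arose in 45 of 768 values of single genes, each not called in either setting. In efficiency WARS1 was 0.011 (median scaling, also with 1 spread) and 0.015 (quantile), AIMP1 0.037 and 0.021, and EEF1E1 -0.00024 (pseudocount 0.1). In footprints AIMP1 was 0.021 and 0.022 with these scalings; in RNA AIMP1 was 0.001 (quantile), CARS1 -0.012 (both scalings) and KARS1 -0.004 (median scaling). Leaving out 1 library gave, in efficiency, AIMP1 -0.095 to 0.041, AIMP2 -0.282 to 0.120, EEF1E1 -0.195 to 0.199, IARS2 -0.42 to 0.15, MARS2 -0.028 to 0.412 and WARS1 -0.11 to 0.003; in footprints, AIMP1 -0.098 to 0.037, AIMP2 -0.286 to 0.116, EEF1E1 -0.272 to 0.121 and IARS2 -0.462 to 0.107; and in RNA, AARS2 -0.073 to 0.001, AIMP1 -0.036 to 0.017, AIMP2 -0.024 to 0.011, CARS1 -0.010 to 0.007, GARS1 -0.020 to 0.005, KARS1 -0.002 to 0.024 and VARS1 -0.006 to 0.045. The causes were not tested. Over 21 alternatives the limma adjusted p in efficiency ran from 0.0159 to 0.999 for KARS1 and from 0.032 to 0.999 for MARS1. Tested members rested on as few as 13 estimated footprint reads in a library (EEF1E1), which limits such changes.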
